A study of Mus musculus with 6 samples.

Results

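The genes of the T cell receptor were examined in RNA sequencing of mouse intestinal crypt stem cells. Rows of the deposited gene table were taken as members when the gene was a variable or constant gene of the alpha, beta, gamma or delta chain and when its counts summed to at least 12 over all 6 samples. Of 136 such genes listed among 28752 genes, 113 were members and 23 were left out. The members were chosen by their total count over both groups together and by no difference between them, but the receptor genes were picked for study with earlier results of these data known. Just inside the limit, Trav13d-1 and Trav9-2 had totals of 12, and just outside it Trav5-1, Trav6-2, Trav6d-4 and Trbv24 had totals of 11.

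The samples are titled intestinal crypt stem cells. The paper's methods describe Lgr5+ intestinal stem cells, sorted by their green fluorescent reporter from Lgr5-GFP mice and grown as crypt-villus organoids. In the control group (n = 3) the cells were infected with a vector adenovirus and carry the genotype label WT. In the other group (n = 3) the adenovirus overexpressed circEZH2_005, a circular RNA of the Ezh2 gene. All 6 samples had 72 h of infection and then hypoxia/reoxygenation (H/R), with 4 h of hypoxia at 2% O2, so no sample kept in normal oxygen enters the comparison. The strain, age and sex of the mice are not given in the sample labels, and the labels do not say whether the samples came from separate animals or cultures, so the p-values measure only the spread between these samples, which may be technical.

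A T cell receptor is a pair of chains, alpha with beta or gamma with delta, and each T cell builds its own pair by joining variable, diversity and joining segments of the genome to a constant gene. The receptor reaches the cell surface only together with the CD3 proteins, which carry the signal into the cell. The gut epithelium of the mouse holds many T cells between its epithelial cells, the intraepithelial lymphocytes (IELs), and a large part of them use gamma-delta receptors. Epithelial cells are not known to rearrange these genes. In bulk RNA, a larger number of T cells and more receptor RNA in each T cell cannot be told apart.

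Of the 113 members, 89 belonged to alpha-beta chains (Trac, 66 Trav segments, Trbc1, Trbc2 and 20 Trbv segments) and 15 to gamma-delta chains (Trdc, 4 Trdv segments, Trgc1 to Trgc4 and 6 Trgv segments). A further 9 segments, such as Trav13-4-dv7, are named for both the alpha and the delta chain and were kept apart. The sequences of a few members are given here because they decide how far reads can be assigned to 1 gene. They are coding sequences of GENCODE M21 transcripts (mouse GRCm38), written 5′ to 3′. The 113 members were all found in that annotation, and 9 of them overlap another annotated gene.

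Trgv2 and Trgv7 were the variable segments with the most gamma reads, and Trgv1 and Trgv3 are close relatives of Trgv2. The lines give the last 60 coding bases of each, with the codon of the last cysteine, after which the junction of the receptor begins, in capitals. The genes lie at chr13:19336573-19337167 (Trgv2, minus strand), chr13:19339989-19340454 (Trgv1, plus strand), chr13:19242845-19243301 (Trgv3, plus strand) and chr13:19178024-19178492 (Trgv7, plus strand).
Trgv2: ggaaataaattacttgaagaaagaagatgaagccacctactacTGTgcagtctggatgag
Trgv1: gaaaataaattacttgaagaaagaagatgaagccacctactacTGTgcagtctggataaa
Trgv3: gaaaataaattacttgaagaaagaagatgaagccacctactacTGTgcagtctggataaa
Trgv7: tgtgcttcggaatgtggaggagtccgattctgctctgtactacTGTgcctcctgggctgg
The ends of Trgv1 and Trgv3 were the same in 60 of 60 bases, and that of Trgv2 differed from them in 3. Over the whole coding sequence Trgv1 shared 95.7% of aligned bases with Trgv2, and Trgv7 shared 49.0% with Trgv2. Reads of Trgv1, Trgv2 and Trgv3 can therefore be split between these genes by the counting, and those of Trgv7 are better separated.

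Trbv12-2 is shown because it was the variable segment that passed the adjusted test, and Trbv12-1 because it is its close relative and did not. They lie at chr6:41118851-41119364 and chr6:41113550-41114067 on the plus strand, and the capitals again mark the last cysteine codon.
Trbv12-2: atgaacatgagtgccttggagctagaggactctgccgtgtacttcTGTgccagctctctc
Trbv12-1: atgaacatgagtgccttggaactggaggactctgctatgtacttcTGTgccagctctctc
These ends differed in 4 of 60 bases, and the coding sequences were the same in 88.2% of aligned bases. Trbv13-2 (chr6:41121396-41121832), Trbv14 (chr6:41135145-41135616) and Trbv3 (chr6:41048290-41048828), all on the plus strand, are shown as the beta segments with the most reads, the largest difference and the widest spread among the circEZH2_005 samples.
Trbv13-2: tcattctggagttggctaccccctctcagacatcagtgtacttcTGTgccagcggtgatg
Trbv14: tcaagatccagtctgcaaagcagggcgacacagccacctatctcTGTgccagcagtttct
Trbv3: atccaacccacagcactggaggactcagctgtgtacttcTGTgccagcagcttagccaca

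For the constant genes, the lines give the first 90 coding bases, with every base in which Trgc2 and Trgc4 differ in capitals. Trgc2 lies at chr13:19304649-19307551 on the minus strand and Trgc4 at chr13:19344558-19352756 on the plus strand.
Trgc2: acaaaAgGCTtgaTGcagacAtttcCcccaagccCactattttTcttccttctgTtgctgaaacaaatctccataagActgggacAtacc
Trgc4: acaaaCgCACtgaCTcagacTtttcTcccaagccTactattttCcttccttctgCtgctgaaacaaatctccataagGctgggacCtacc
Trgc2 and Trgc4 differed in 13 of these 90 bases, whereas Trgc1 differed from Trgc2 in 1 of them. The same 90 bases of Trbc1 and Trbc2 were identical, as this line for Trbc1 (chr6:41538218-41539881, plus strand) also holds for Trbc2 (chr6:41546730-41548352, plus strand).
Trbc1: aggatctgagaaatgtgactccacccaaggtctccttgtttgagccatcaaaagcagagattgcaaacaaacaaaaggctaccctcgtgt
Over the whole coding sequence Trbc1 and Trbc2 shared 95.6% of bases and Trgc1 and Trgc2 shared 97.4%, so the split of reads within each pair is uncertain. 3 pairs of alpha segments, namely Trav12d-2 with Trav12n-2, Trav14d-2 with Trav14n-2 and Trav7-2 with Trav7d-2, were identical over their aligned coding sequence and had the same counts in all 6 samples. Whole alpha sequences were compared only for pairs with the same counts. The last 60 coding bases were also the same in Trav15n-2, Trav15d-2-dv6d-2 and Trav15-2-dv6-2, and in Trav15n-1 and Trav15d-1-dv6d-1. The same held for Trav4n-4, Trav4-3 and Trav4-4-dv10, and for Trav13-4-dv7, Trav13d-1, Trav13n-1 and Trav13n-4. Reads within each of these sets can be split between chain classes.

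The libraries held 71506487 to 79919893 counts, which puts 3 counts at 0.0377 to 0.0419 CPM (counts per 1e6, after TMM scaling of the libraries). The labelled cell type was checked against its markers. Gut epithelium markers (7 genes, among them Epcam and Krt8) summed to 7638 to 8030 CPM in the vector samples and to 9223 to 11524 CPM in the circEZH2_005 samples. Crypt stem cell markers (6 genes) summed to 2009 to 2848 CPM and 1355 to 1984 CPM, and Lgr5 (log2 fold change -0.88 ± 0.18 SE, adjusted p = 0.0434 by edgeR) and Smoc2 (-0.81 ± 0.11 SE, adjusted p = 0.0203) fell. None of the 10 T cell markers was at 0 in all vector samples. They summed to 42.8 to 145 CPM in the vector and to 218 to 352 CPM in the circEZH2_005 samples. The paper's methods describe sorting for the Lgr5 reporter before culture. Whether the T cell transcripts came from cells that went through the sort was not tested.

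T cell receptor transcripts of all chains had higher mean levels with circEZH2_005 than with vector. Values are given in the order of the sample numbers throughout. Summed over the 113 members, counts were 2054, 7631 and 3079 in the vector samples and 20440, 13946 and 10810 in the circEZH2_005 samples. Every circEZH2_005 sample lay above every vector sample, and vector sample 2 stood between the other vector samples and the circEZH2_005 samples. In CPM the sum was 56.6 ± 39.8 (SD, n = 3) against 198 ± 54.0 (SD, n = 3), a ratio of 3.51, or 5.86 without vector sample 2. Without any 1 of the other samples it was between 2.81 (without vector sample 1) and 3.93 (without circEZH2_005 sample 3). The mean CPM was higher with circEZH2_005 for 108 of the 113 members (95.6%), and 50.8% of all 23073 genes with a total of at least 12 had a higher mean in that group. In the vector samples 68, 26 and 62 members had no count, and in the circEZH2_005 samples 2, 16 and 26 had none.

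The test across all genes, the quasi-likelihood test of edgeR with Benjamini-Hochberg adjustment over 18348 genes, covered 48 of the members. The other 65 had too few counts for its filter, with no more than 49 counts in any sample. Of these, 61 had a higher and 4 a lower mean CPM with circEZH2_005. Of the tested members, 17 were over the filter level in all 6 samples. Trav6d-7 and Trbv2 were over it in the 3 circEZH2_005 samples and in no vector sample. A further 12 were over it in no more than 2 circEZH2_005 samples, and the rest in all 3 but in only some vector samples. As the filter asks for 3 samples, the rest also passed it only with the circEZH2_005 samples. The counts of tested members therefore describe these members and not the whole family. At an adjusted p under 0.05, 2 of the 48 tested members were higher (4.17%), against 2.69% of all genes tested, and 0 were lower, against 0.986%. The members that rose were Trbv12-2, a beta variable segment, and Trgc1, a gamma constant gene. Leaving out vector sample 2 gave 14 of 61 members that passed (23.0%, all genes 5.74%), and leaving out any 1 of the other 5 samples gave 0 (all genes 0.136% to 2.91%).

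At a fold change over 2 with p under 0.05, without adjustment, 23 of the 48 tested members were higher (all genes 6.22%) and 0 were lower with a fold change under 0.5 (all genes 1.34%). Without vector sample 2, 45 of 61 members were higher by this rule (73.8%, all genes 7.81%). Without any 1 of the other samples, 33.3% to 43.8% of the tested members were higher (all genes 4.79% to 6.61%). The groups were separate, with the 3 circEZH2_005 samples higher, in 26 members (54.2%, all genes 16.4%), and in 0 were they separate the other way (all genes 14.2%). The single tested member with a negative log2 fold change, Trav4n-4, had an unadjusted p of 0.625, and DESeq2 also called 0 members lower. The median log2 fold change of the tested members was 1.79, and that of all genes tested was 2.15e-05. The plot of log2 fold changes shows the alpha-beta, gamma-delta and alpha/delta-named members intermingled along this range.

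**Figure D1:**
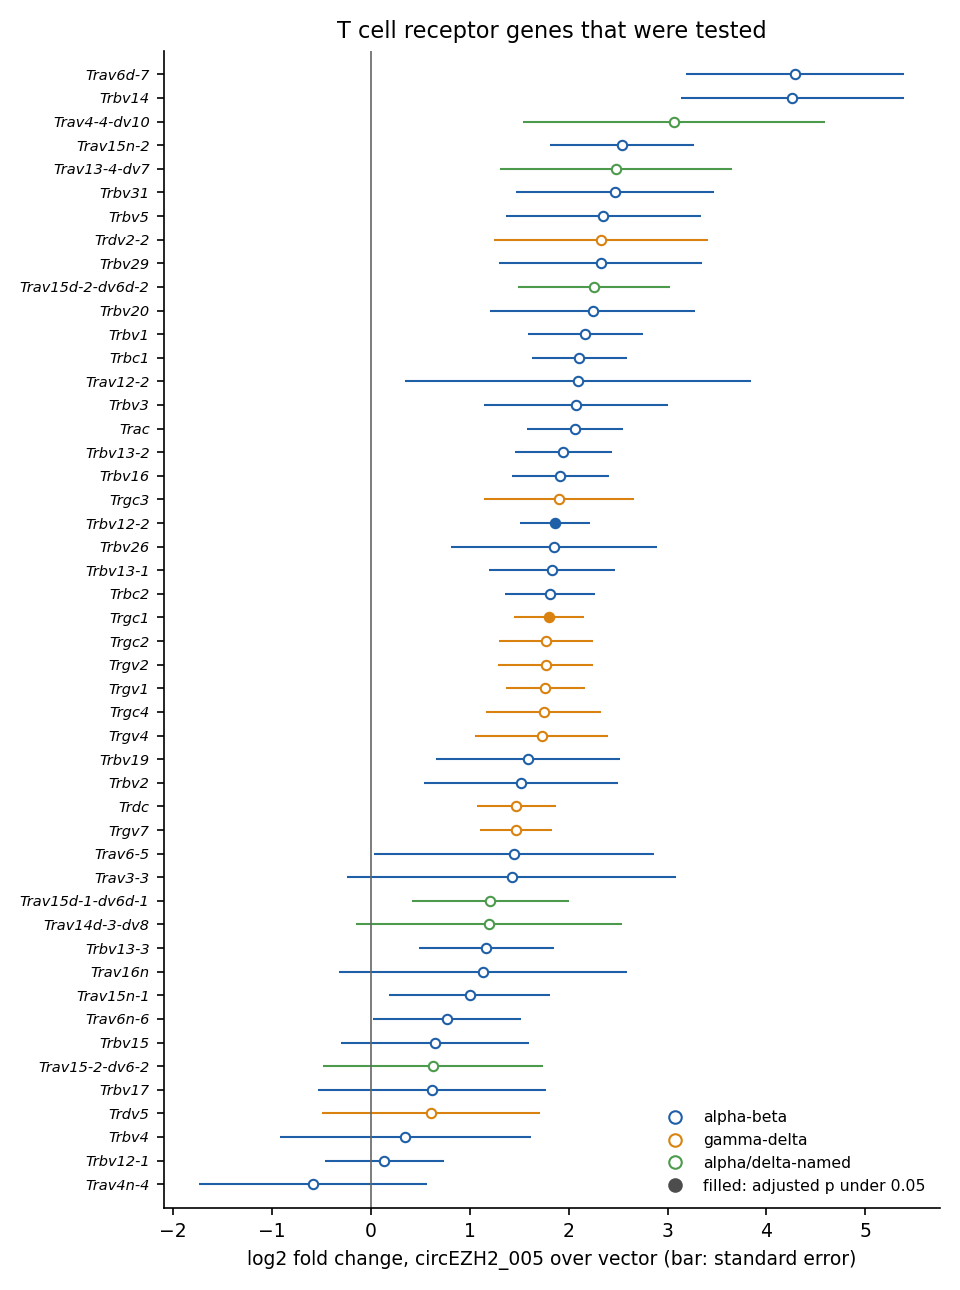
Log2 fold change of circEZH2_005 over vector (horizontal axis, edgeR) of the 48 tested T cell receptor genes, ordered by size. Points are colored by chain, bars are standard errors and filled points have an adjusted p under 0.05. Of the 48 points, 47 lie to the right of 0, and Trbv12-2 and Trgc1 are filled.

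Every receptor transcript of a chain includes a constant gene. The constant genes held 70.7% to 73.2% of the member counts in the vector samples and 71.9% to 73.6% in the circEZH2_005 samples. Trac, the constant gene of the alpha chain (chromosome 14, 54220521 to 54224206, plus strand), had counts of 190, 654 and 229 in the vector samples and of 2093, 1476 and 970 in the circEZH2_005 samples. The lowest circEZH2_005 sample was above the highest vector sample. In CPM, Trac was at 4.77 ± 3.45 (SD, n = 3) against 19.9 ± 6.39 (SD, n = 3), and its log2 fold change was 2.06 ± 0.49 (SE, adjusted p = 0.0595 by edgeR), which missed the adjusted threshold.

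Beta chains join Trbc1 or Trbc2, whose products differ little. Trbc1 had counts of 168, 549 and 182 in the vector samples and of 1772, 1281 and 878 in the circEZH2_005 samples. Trbc2 had counts of 246, 836 and 379 in the vector samples and of 2428, 1719 and 1059 in the circEZH2_005 samples. For both genes the groups did not overlap. The log2 fold changes were 2.11 ± 0.48 (SE, adjusted p = 0.0566) for Trbc1 and 1.82 ± 0.46 (SE, adjusted p = 0.0674) for Trbc2. The share of Trbc2 in the reads of this pair was 59.4% to 67.6% in the vector samples and 54.7% to 57.8% in the circEZH2_005 samples, without overlap, and this share was not tested and depends on how reads of the common sequence were assigned.

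Trdc, the only constant gene of the delta chain (chromosome 14, 54142851 to 54148868, plus strand), had counts of 151, 479 and 295 in the vector samples and of 1209, 651 and 723 in the circEZH2_005 samples. These groups did not overlap either, and the distance between the highest vector sample and the lowest circEZH2_005 sample was small, 6.41 against 8.75 CPM. The log2 fold change of Trdc was 1.47 ± 0.40 (SE, adjusted p = 0.0806), the smallest among the 8 constant genes, but the difference from the others was not tested. Trdc overlaps the segment Trdv5 and the gene Gm43434 on the opposite strand, and whether counting used the strand is not given in the sources used here.

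The gamma locus on chromosome 13 has 4 constant genes, each with its own variable segments upstream. Trgc1 had counts of 234, 574 and 290 in the vector samples and of 1763, 1110 and 997 in the circEZH2_005 samples. Trgc1 rose, from 4.87 ± 2.44 CPM to 17.0 ± 4.51 CPM (SD, n = 3 each), with a log2 fold change of 1.80 ± 0.35 (SE, adjusted p = 0.0424). It passed in 3 of 10 alternative fits (median-of-ratios factors, DESeq2 and without vector sample 2), and the adjusted p did not exceed 0.166 in any of them.

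Trgc2 was the constant gene with the most reads, 389, 1662 and 646 in the vector samples and 4055, 2624 and 2591 in the circEZH2_005 samples. Trgc4 had counts of 102, 625 and 226 in the vector samples and of 1387, 1107 and 732 in the circEZH2_005 samples. In both genes the groups were separate, with log2 fold changes of 1.77 ± 0.48 (SE, adjusted p = 0.0795) for Trgc2 and 1.75 ± 0.58 (SE, adjusted p = 0.124) for Trgc4. Trgc3 had few reads, 10, 15 and 8 in the vector samples and 61, 58 and 8 in the circEZH2_005 samples. With circEZH2_005 sample 3 at the level of the vector samples, the groups of Trgc3 overlapped (log2 fold change 1.902 ± 0.76 SE, adjusted p = 0.183).

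**Figure D2:**
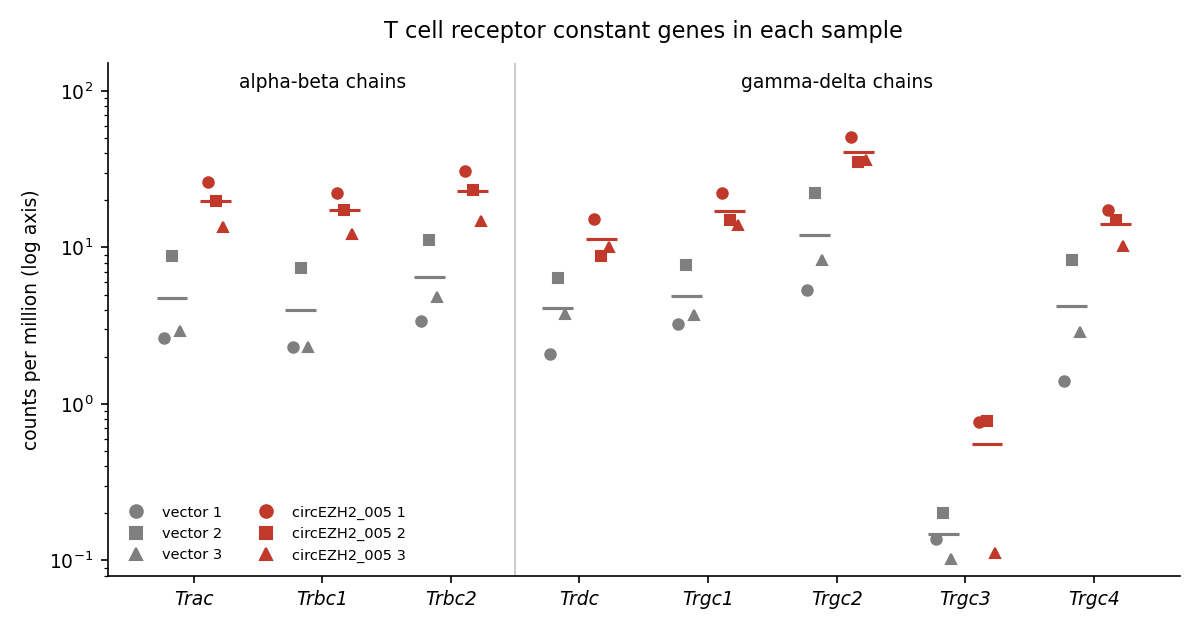
CPM (log axis) of the 8 T cell receptor constant genes in each sample, with vector in gray and circEZH2_005 in red, point shape giving the sample number and a line at each group mean. In 7 of the 8 genes the 3 red points lie above the 3 gray points, and in Trgc3 circEZH2_005 sample 3 lies among the vector samples.

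Between genes, levels were compared per length, as deposited FPKM, fragments scaled to gene length and library size. In the circEZH2_005 samples the order was Trgc2 at 39.2 ± 11.1, Trbc2 at 29.0 ± 11.6, Trbc1 at 20.2 ± 7.0, Trac at 18.7 ± 7.03, Trgc1 at 16.2 ± 5.35, Trgc4 at 12.6 ± 3.86, Trdc at 2.59 ± 0.947 and Trgc3 at 0.743 ± 0.523 (SD, n = 3). From Trgc2 to Trgc4 each step between neighbours was smaller than the larger of their SDs, and Trdc and Trgc3 stood below. In the vector samples Trgc2 (12.2 ± 9.33) and Trbc2 (8.70 ± 5.67) were again the highest, and Trdc (0.981 ± 0.537) and Trgc3 (0.200 ± 0.0696) the lowest. The low FPKM of Trdc goes with a long gene model: its deposited values imply a length of 4.32 kb, and those of Trac imply 1.05 kb. The place of Trdc therefore depends on how many of these bases belong to its transcripts.

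For the comparison of receptor types, counts were summed over the chains. Alpha-beta members summed to 12.2, 42.1 and 14.3 CPM in the vector samples and to 115, 86.9 and 57.9 CPM in the circEZH2_005 samples. Gamma-delta members summed to 15.9, 58.8 and 24.8 CPM in the vector samples and to 138, 99.1 and 91.7 CPM in the circEZH2_005 samples. In each chain class the circEZH2_005 samples were separate from the vector samples. The ratio of group means was 3.78 for alpha-beta chains (log2 ratio 1.92) and 3.30 for gamma-delta chains (log2 ratio 1.72). The difference of these log2 ratios was -0.20, gamma-delta minus alpha-beta. Without vector sample 2 the log2 ratios were 2.71 and 2.43. Leaving out vector sample 1, the lowest control in both classes, would lower them instead. No test was run on these sums.

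Gamma-delta chains made up 56.0%, 57.6% and 63.0% of the member counts in the vector samples and 53.6%, 52.9% and 60.7% in the circEZH2_005 samples. The 2 ranges overlapped, and the exact Clopper-Pearson 95% intervals, which cover counting error only, were between 52.0% and 64.7% over all 6 samples. Among constant genes alone the gamma-delta share was 59.5% to 65.0% in the vector and 55.4% to 63.5% in the circEZH2_005 samples, again overlapping. Per length, gamma-delta chains were above alpha-beta chains in the vector group (summed FPKM 38.9 against 35.9) and below them in the circEZH2_005 group (123 against 127). Over constant genes alone, gamma-delta chains were above alpha-beta chains per length in the vector group (22.2 against 18.4) and in the circEZH2_005 group (71.4 against 68.0). These FPKM sums are group means given without a spread. Which receptor type had more transcripts with circEZH2_005 thus depended on the scale and on the genes summed. Both types were higher with circEZH2_005 on either scale.

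Of Trdc and Trac together, Trdc held 44.3%, 42.3% and 56.3% in the vector samples and 36.6%, 30.6% and 42.7% in the circEZH2_005 samples. The highest circEZH2_005 sample was just above the lowest vector sample. By genes tested, 13 of 31 alpha-beta members and 9 of 11 gamma-delta members passed a fold change over 2 with p under 0.05 (all genes 6.22%), and the median log2 fold changes were 1.85 and 1.76. The gamma-delta members that were tested include all 5 of their constant genes, and the alpha-beta members many segments with few reads. Among the 9 segments named for both chains, 6 were tested, with a median of 1.73.

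**Figure D3:**
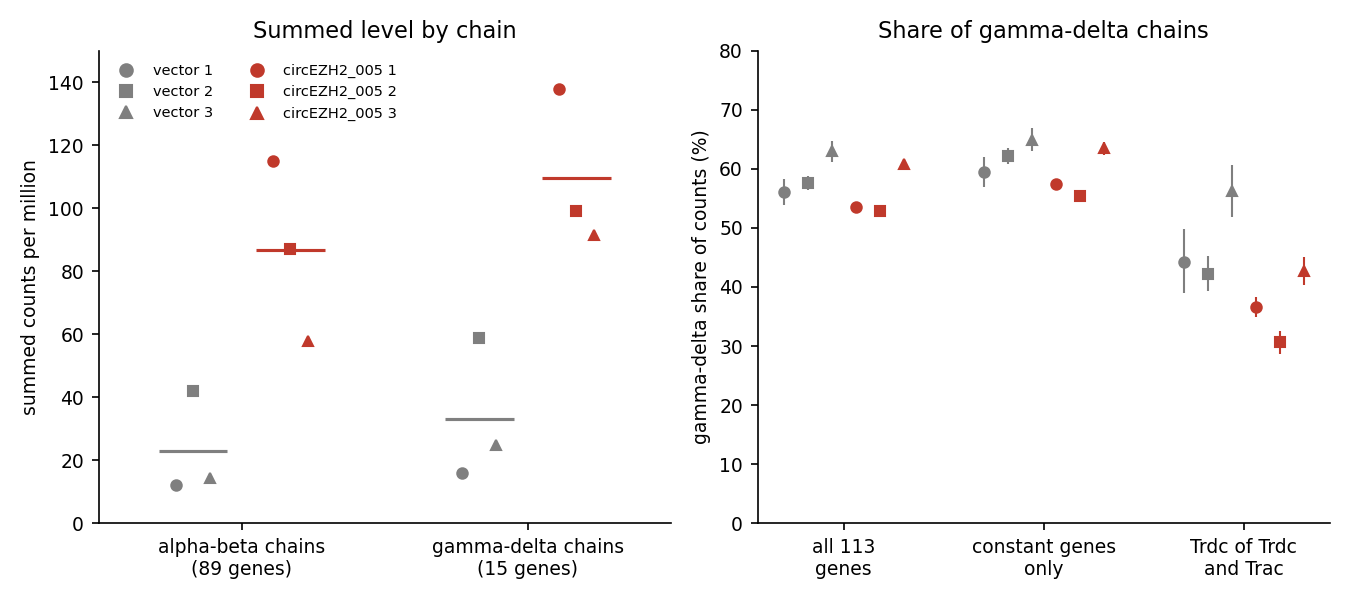
Left, summed CPM of 89 alpha-beta and 15 gamma-delta genes in each sample, with lines at group means. Right, gamma-delta share of counts (%) over all 113 members, over the constant genes, and for Trdc of Trdc and Trac, with exact 95% intervals. The sums of the groups are separate in both chains, and the groups overlap in each of the 3 shares.

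Among gamma variable segments, 4 of 6 were tested and all 4 passed a fold change over 2 with p under 0.05 (all genes 6.22%), none of them after adjustment. Trgv2 led in all 6 samples, with counts of 136, 592 and 229 in the vector samples and of 1313, 1094 and 868 in the circEZH2_005 samples. Its share of gamma variable counts was 50.2% to 60.04% in the vector and 55.2% to 62.6% in the circEZH2_005 samples, with overlap. Its log2 fold change was 1.77 ± 0.48 (SE, adjusted p = 0.0812), close to that of Trgc2, the constant gene 29.0 kb downstream on the same strand.

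Trgv7, the segment best known from gut IELs of the mouse, had counts of 64, 192 and 146 in the vector samples and of 432, 328 and 348 in the circEZH2_005 samples. It was higher in all 3 circEZH2_005 samples (log2 fold change 1.46 ± 0.36 SE, adjusted p = 0.0659). Its share of gamma variable counts was 19.5% to 32.0% in the vector and 18.2% to 23.8% in the circEZH2_005 samples, with overlap. Trgv1 had counts of 38, 80 and 33 in the vector samples and of 227, 156 and 136 in the circEZH2_005 samples, without overlap (1.76 ± 0.40 SE, adjusted p = 0.0564). Trgv4 had counts of 20, 113 and 44 in the vector samples and of 358, 138 and 103 in the circEZH2_005 samples, with vector sample 2 above circEZH2_005 sample 3 (1.73 ± 0.67 SE, adjusted p = 0.173). Trgv4 and Trgv7 overlap the gene Gm31887 on the opposite strand.

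Each gamma segment was set beside the nearest constant gene downstream on its own strand. Trgv2 had 35.0% to 35.6% as many counts as Trgc2 in the vector samples and 32.4% to 41.7% in the circEZH2_005 samples. Trgv4, Trgv6 and Trgv7 together had 35.9% to 65.5% of the counts of Trgc1 in the vector samples and 43.2% to 45.2% in the circEZH2_005 samples. Trgv1, 4.1 kb upstream of Trgc4, had 12.8% to 37.3% and 14.1% to 18.6% of its counts. In these pairs the ranges of the groups overlapped. With variable and constant genes summed, the Trgc1 cluster went from 7.43 ± 3.85 to 24.6 ± 6.59 CPM, the Trgc2 cluster from 16.2 ± 12.3 to 55.3 ± 10.7 CPM and the Trgc4 cluster from 4.89 ± 3.99 to 16.5 ± 4.12 CPM (SD, n = 3), ratios of 3.31, 3.41 and 3.36. Without vector sample 2 these ratios were 4.67, 5.996 and 6.28. Their lowest values with 1 sample left out were 2.75, 2.67 and 2.58, each without vector sample 1.

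Delta variable segments had few reads. Trdv2-2 had counts of 3, 20 and 0 in the vector samples and of 51, 45 and 23 in the circEZH2_005 samples, and led the delta segments in each of the latter (log2 fold change 2.33 ± 1.09 SE, adjusted p = 0.245). Trdv5 had counts of 0, 34 and 9 in the vector samples and of 28, 20 and 18 in the circEZH2_005 samples, with vector sample 2 the highest of all (0.61 ± 1.10 SE, adjusted p = 0.791). Trdv1, at 25, 8 and 0, was at 0 in the vector samples and below the filter, and Trdv4, with counts of 4, 0 and 9 against 0, 0 and 15, was below it as well. All 4 delta segments thus rested on at most 51 counts in a sample.

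Among beta variable segments, 19 of 20 were tested, 8 passed a fold change over 2 with p under 0.05 (all genes 6.22%), and 12 were without overlap between the groups, circEZH2_005 higher (all genes 16.4%). Trbv12-2 rose, with counts of 21, 43 and 26 in the vector samples and of 126, 106 and 98 in the circEZH2_005 samples. Its CPM of 0.399 ± 0.154 against 1.46 ± 0.113 (SD, n = 3) had little spread in either group, and its log2 fold change was 1.87 ± 0.36 (SE, adjusted p = 0.0394 by edgeR). Without any 1 of the 5 samples other than vector sample 2 its adjusted p was above 0.05, up to 0.160. It was also above 0.05 without a filter on low counts (0.0745) and with the replicate block (0.0768). Trbv12-2 thus passed in 3 of 10 alternative fits. Trbv12-1, its close relative, had counts of 8, 17 and 12 in the vector samples and of 19, 11 and 11 in the circEZH2_005 samples, which overlapped (0.14 ± 0.60 SE, adjusted p = 0.920), and its sign turned without vector sample 1 (-0.08) and without circEZH2_005 sample 1 (-0.12).

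Trbv13-2 had the most beta reads in all samples but circEZH2_005 sample 1, with counts of 25, 102 and 43 in the vector samples and of 184, 219 and 248 in the circEZH2_005 samples. The groups did not overlap (log2 fold change 1.94 ± 0.49 SE, adjusted p = 0.0679). Trbv3 had counts of 17, 96 and 12 in the vector samples and of 360, 140 and 46 in the circEZH2_005 samples. It was the leading beta segment of circEZH2_005 sample 1, where it held 19.6% of the beta variable counts, and its groups overlapped (2.07 ± 0.93 SE, adjusted p = 0.228). Trbv16 had counts of 23, 54 and 40 against 231, 152 and 66, without overlap (1.92 ± 0.49 SE, adjusted p = 0.0705).

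Trbv14 had counts of 0, 11 and 0 in the vector samples and of 100, 70 and 51 in the circEZH2_005 samples. All 3 circEZH2_005 samples were above vector sample 2, the only control with reads of this segment. The fitted log2 fold change of 4.26 ± 1.13 (SE, adjusted p = 0.0752) rests on these 11 vector counts. It was between 3.68 and 4.99 in the 9 alternatives that kept vector sample 2, and without that sample no vector count is left from which to state a fold.

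**Figure D4:**
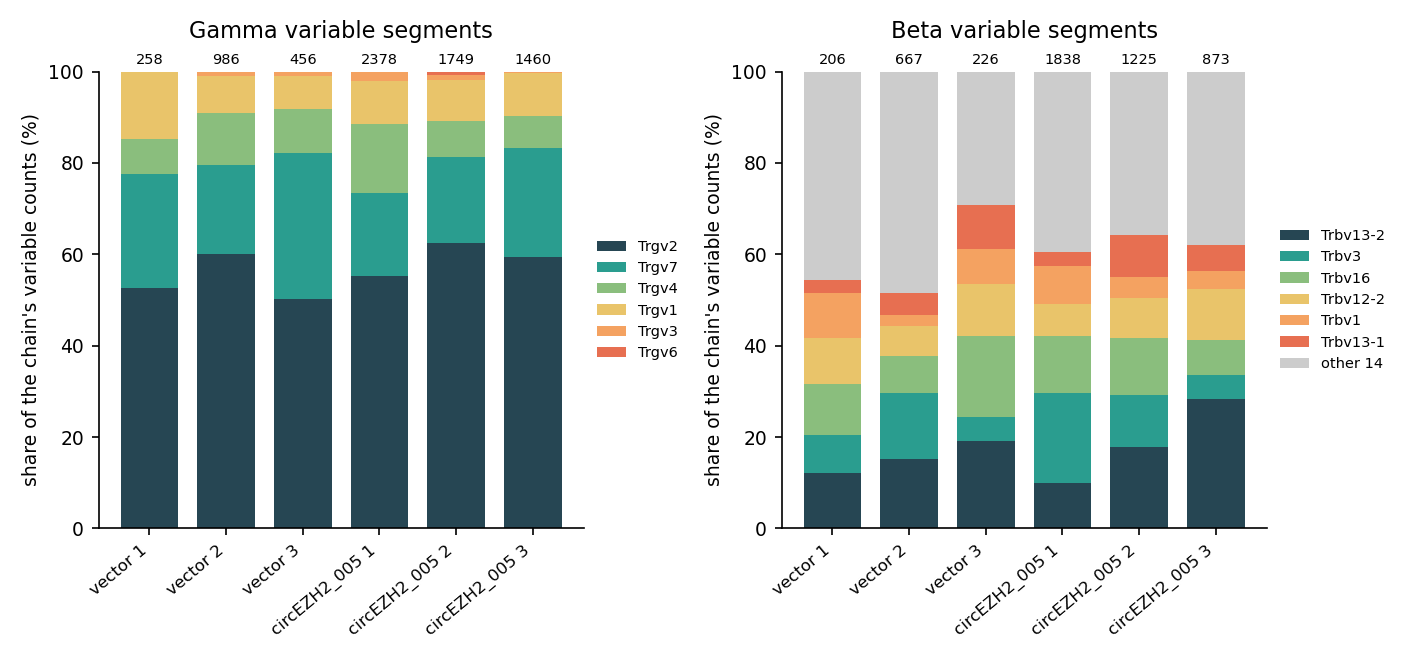
Share (%) of the counts of gamma variable segments (left, 6 segments) and of beta variable segments (right, 20 segments) in each sample, with the total count of the chain's segments above each bar. Trgv2 is the largest part of every gamma bar, at 50.2% to 62.6%, and the leading beta segment holds between 12.1% and 28.4%.

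Alpha reads were spread over many segments. Of 66 alpha segments, 11, 41 and 14 had 3 or more counts in the vector samples and 64, 50 and 40 had as many in the circEZH2_005 samples. The number of segments seen moved with the number of alpha variable counts, 73, 441 and 106 against 1008, 767 and 370, and says nothing of diversity at equal depth. Only 9 alpha segments were tested, and 2 of them, Trav6d-7 and Trav15n-2, passed a fold change over 2 with p under 0.05 (all genes 6.22%).

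Trav15n-2 had counts of 5, 14 and 13 in the vector samples and of 57, 112 and 19 in the circEZH2_005 samples, without overlap (log2 fold change 2.54 ± 0.72 SE, adjusted p = 0.0880). Trav6d-7 had counts of 0, 2 and 0 in the vector samples and of 12, 19 and 15 in the circEZH2_005 samples, the largest log2 fold change of all tested members (4.29 ± 1.10 SE, adjusted p = 0.0703). It passed the filter only through the circEZH2_005 samples, and with 2 vector counts in all its size is poorly fixed. Trav6-5 (0, 32 and 0 against 20, 48 and 20), Trav15n-1 (7, 22 and 4 against 41, 14 and 13) and Trav16n (0, 28 and 0 against 25, 31 and 7) had reads in vector sample 2 at the level of the circEZH2_005 samples, and their adjusted p was 0.593, 0.512 and 0.693. Trav4n-4, with counts of 3, 17 and 11 against 15, 6 and 0, was the tested member with a lower level (-0.58 ± 1.15 SE, adjusted p = 0.809). Its last 60 coding bases are also those of Trav4-4-dv10 (0, 11 and 0 against 82, 12 and 5) and Trav4-3 (0, 0 and 4 against 9, 8 and 4). The assignment of reads among these 3 segments was not tested.

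Of the segments named for both chains, the 2 with the highest mean CPM are given. Trav13-4-dv7 had counts of 8, 12 and 0 in the vector samples and of 77, 6 and 34 in the circEZH2_005 samples, with overlap (log2 fold change 2.48 ± 1.18 SE, adjusted p = 0.254). Trav15d-2-dv6d-2 had counts of 5, 10 and 3 against 57, 16 and 17, without overlap (2.26 ± 0.77 SE, adjusted p = 0.130). Among all members, 18 had no count in any vector sample, and none of these reached the filter. Conversely Trav9-2, with 12 counts in vector sample 1, had none in the circEZH2_005 samples.

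The receptor genes were then set beside the rest of the T cell machinery, by lists that were chosen with earlier results of these data known. The CD3 complex, which carries the receptor to the surface, was higher in 4 of 4 genes at a fold change over 2 with p under 0.05 (all genes 6.22%). The median log2 fold change was 1.98. After adjustment 0 of 4 were higher in edgeR (all genes 2.69%) and 3 in DESeq2 (all genes 5.53%). Cd3d was the member with the largest log2 fold change, 2.02 ± 0.53 (SE, adjusted p = 0.0724), with counts of 115, 521 and 177 in the vector samples and of 1443, 1124 and 774 in the circEZH2_005 samples. Cd3e had the smallest, 1.897 ± 0.57 (SE, adjusted p = 0.0982). Summed CD3 levels were 13.1, 49.4 and 13.8 CPM in the vector samples and 122, 99.97 and 75.7 CPM in the circEZH2_005 samples, a ratio of means of 3.90, or 7.39 without vector sample 2. Without any 1 of the other samples this ratio was between 3.14 and 4.36. Counts of receptor constant genes per CD3 count were 1.58, 1.46 and 2.09 in the vector and 1.52, 1.35 and 1.47 in the circEZH2_005 samples, so that the samples with more receptor reads had more CD3 reads by a similar factor.

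Of the co-receptors, Cd4, which marks helper T cells, had counts of 112, 516 and 134 against 1421, 1118 and 689 (log2 fold change 2.06 ± 0.58 SE, adjusted p = 0.0864). Cd8a, a chain that many IELs carry as a homodimer, had counts of 1238, 3588 and 1381 against 9067, 7526 and 5130 (1.79 ± 0.41 SE, adjusted p = 0.0570). In both the groups were separate, as they were for Cd8b1, the partner chain of Cd8a on conventional cytotoxic T cells (73, 382 and 194 counts against 1105, 986 and 625, 2.06 ± 0.52 SE, adjusted p = 0.0678). All 3 passed a fold change over 2 with p under 0.05 (all genes 6.22%), with a median of 2.06. After adjustment 0 of 3 were higher in edgeR (all genes 2.69%) and 3 in DESeq2 (all genes 5.53%).

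Of 24 genes of receptor signalling and the T cell surface, 22 passed a fold change over 2 with p under 0.05 (all genes 6.22%), 22 were without overlap (all genes 16.4%), and the median log2 fold change was 1.76. After adjustment 15 were higher in DESeq2 (all genes 5.53%) and 2 in edgeR (all genes 2.69%). The 2 in edgeR were Ptpn22, a phosphatase that restrains receptor signalling (1.08 ± 0.16 SE, adjusted p = 0.0229), and Skap1, an adaptor of integrin activation (2.14 ± 0.45 SE, adjusted p = 0.0473). Ptpn22 was also the smallest change of the list and differed in its pattern: counts were 992, 1115 and 903 in the vector samples and 2690, 2045 and 1692 in the circEZH2_005 samples, with vector sample 2 close to the other vector samples. The largest was Cd96, a surface receptor of T and NK cells (2.33 ± 0.53 SE, adjusted p = 0.0571).

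Of 20 effector and homing genes of IELs, 19 passed a fold change over 2 with p under 0.05 (all genes 6.22%), 18 were without overlap (all genes 16.4%), and the median was 1.95. After adjustment 13 were higher in DESeq2 (all genes 5.53%) and 2 in edgeR (all genes 2.69%). Fasl, a death ligand (2.19 ± 0.38 SE, adjusted p = 0.0313), and Cd7 (1.97 ± 0.41 SE, adjusted p = 0.0468) rose. Itgae, the integrin chain that holds IELs to E-cadherin and that is named here after its values were seen, had counts of 1080, 4006 and 1385 against 11647, 9549 and 6949 (2.11 ± 0.47 SE, adjusted p = 0.0550). The largest log2 fold change was that of Ifng (2.77 ± 0.91 SE, adjusted p = 0.122) and the smallest that of Eomes (1.24 ± 0.75 SE, adjusted p = 0.369), and in both the groups overlapped.

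Of the genes of the gamma-delta T cell lineage, 0 of 6 tested passed either threshold by edgeR, 2 were without overlap (all genes 16.4%), and the median log2 fold change was 0.47. At an unadjusted p under 0.05 there were 2 higher and 0 lower, a threshold for which the share of all genes is not given here. DESeq2 called 2 higher after adjustment (all genes 5.53%). Maf had the largest (0.89 ± 0.24 SE, adjusted p = 0.0791) and Etv5 the smallest (-0.10 ± 0.17 SE, adjusted p = 0.792). The 8 listed genes summed to 189, 189 and 174 CPM in the vector samples and to 212, 351 and 268 CPM in the circEZH2_005 samples. In the vector samples the gamma-delta receptor members summed to only 15.9, 58.8 and 24.8 CPM, with sample 2 the highest. How much of the list's RNA came from T cells was not tested. Cd163l1 and Il17a, which mark interleukin-17-producing gamma-delta cells, had at most 8 counts in any sample. Of the genes used while receptors are built in the thymus, Rag1, which cuts the receptor loci, had at most 4 counts, Dntt, which adds bases at the joints, at most 24, and Ptcra, the partner of the beta chain in the pre-T cell receptor, at most 4, and none was tested.

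The epithelial side of the interaction was also examined. Of 10 epithelial ligands and survival factors of IELs, 1 passed a fold change over 2 with p under 0.05 (all genes 6.22%) and 0 passed the adjustment in edgeR (median 0.26). At an unadjusted p under 0.05, 2 were higher and 1 was lower, without a share of all genes to set beside these counts. DESeq2 called 2 higher (all genes 5.53%) and 0 lower after adjustment. The butyrophilin-like genes Btnl1 and Btnl6, whose products are known to shape Trgv7-expressing IELs, had log2 fold changes of 0.07 ± 0.20 (SE, adjusted p = 0.876) and 0.27 ± 0.15 (SE, adjusted p = 0.335). The largest was that of Btnl7-ps (1.06 ± 0.27 SE, adjusted p = 0.0674) and the smallest that of Il7 (-0.72 ± 0.27 SE, adjusted p = 0.160).

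Markers of other cells were also compared between the groups. The 10 B and plasma cell markers summed to 58.9 to 111 CPM in the vector and to 90.5 to 418 CPM in the circEZH2_005 samples, with overlap, and circEZH2_005 sample 1, which had the most T cell receptor reads, also had the most of these. Their log2 fold changes were positive in 10 of 10 (median 1.37). At a fold change over 2 with p under 0.05, 4 were higher (all genes 6.22%), and 0 after adjustment in edgeR. The 6 NK and innate lymphoid markers summed to 1.34 to 5.54 CPM and 7.06 to 18.0 CPM, and Ncr1 and Il23r were at 0 in all vector samples. Of the 5 tested, all had positive log2 fold changes (median 2.17). By the same fold rule 4 were higher, and 1 after adjustment in edgeR (all genes 2.69%). The 8 myeloid markers summed to 663 to 855 CPM and 1398 to 1953 CPM, most of it Cd74 (1.27 ± 0.17 SE, adjusted p = 0.0181), which is also made by gut epithelium. Of the 8, 7 had a positive and 1 a negative log2 fold change (median 0.41). By the fold rule 2 were higher (all genes 6.22%), and 2 after adjustment in edgeR (all genes 2.69%). The 5 erythroid markers had the opposite sign, with 5 of 5 negative log2 fold changes (median -0.60), and summed to 18.4 to 32.2 CPM and 8.87 to 20.8 CPM, with overlap. By edgeR 2 of them were lower at a fold change under 0.5 with p under 0.05 (all genes 1.34%) and 0 after adjustment (all genes 0.986%). DESeq2 called 2 lower after adjustment, and the share of all genes lower in DESeq2 is not given here. The 8 markers of fibroblasts, muscle and endothelium summed to 4.97 to 8.51 CPM and 5.26 to 15.2 CPM. Of the 7 tested, 4 had a positive and 3 a negative log2 fold change (median 0.11). By the fold rule 1 was higher (all genes 6.22%), and 1 after adjustment in edgeR (all genes 2.69%). The part of such cells in the difference of the receptor genes was not tested.

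**Figure D5:**
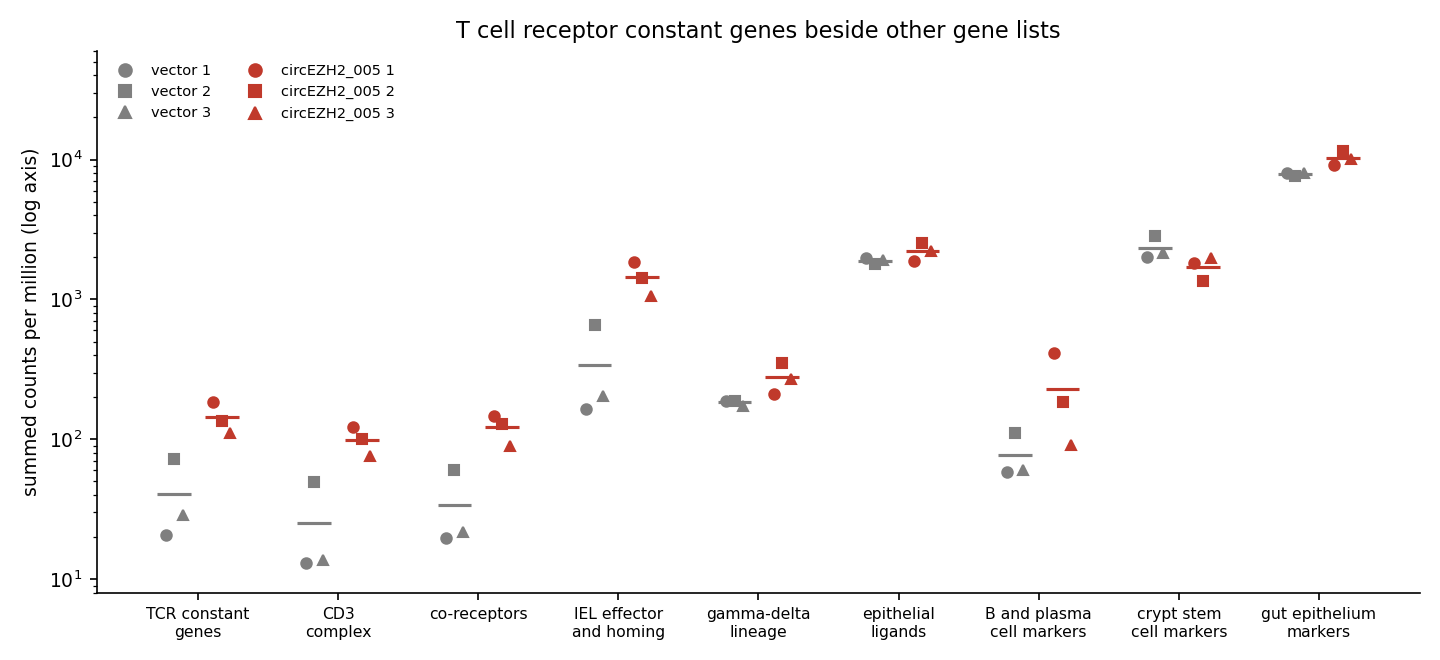
Summed CPM (log axis) of the T cell receptor (TCR) constant genes and of 8 other gene lists in each sample, with vector in gray, circEZH2_005 in red, point shape giving the sample number and a line at each group mean. The receptor, CD3, co-receptor and IEL lists share the order of samples, with vector sample 2 the highest control, and the epithelial lists show a far smaller distance between the groups.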

How the data were processed

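The members and the gene lists were chosen with earlier results of these data known. For each gene and sample the authors deposited a whole-number read count, not normalized, and an FPKM value. Per the labels, polyadenylated RNA was selected with oligo(dT), and the submitters' processing notes name mm10, cutadapt 1.9, HISAT2 2.0.4, StringTie 1.3.4d and DESeq2 without their settings. How reads shared by near-identical segments were assigned is not given in the sources used here. Columns carrying the name of a negative control were matched to the vector samples, the only control group.

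The counts entered a quasi-likelihood fit in edgeR 4.0.16 (R 4.3.3) after filterByExpr and TMM scaling, without a covariate and with Benjamini-Hochberg adjustment over all genes tested. A standard error (SE) was taken as the size of the change over the root of its F value. Sums and shares were not tested. Named were every constant gene, the 4 segments with the highest mean CPM of each chain (2 of those named for both chains), members with adjusted p under 0.05, the 2 largest and 2 smallest log2 fold changes, and the extremes of each list; other genes of the lists were named after their values were seen. Sequences came from GENCODE M21 transcripts.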

Additional observations from a re-analysis of the deposited data

How the results depend on the processing

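The 2 members higher at an adjusted p under 0.05 were also called with median-of-ratios size factors. The count was 0 without a filter on low counts (all genes 0.459%), 17 of 113 with DESeq2 1.42.0 (all genes 5.53%; 29 members had an adjusted p), 0 with the replicate block (all genes 1.31%), and 0 to 14 when 1 sample was left out, with the 14 reached without vector sample 2. For a fold change over 2 with p under 0.05, the count of 23 became 37 without a filter (all genes 4.61%) and 43 with DESeq2 (all genes 4.86%), and 18 to 45 when 1 sample was left out. In every one of these settings 0 members were lower. The median log2 fold change of 1.79 was between 1.38 and 2.66 when 1 sample was left out, the highest again without vector sample 2, and the log2 ratio of summed alpha-beta levels was between 1.62 and 2.71, likewise. The log2 ratio of summed gamma-delta levels, its difference from that of alpha-beta and the gamma-delta shares moved by less than the spread between samples in all alternatives run. For the summed gamma-delta levels the margin was small. Without vector sample 2 their log2 ratio likewise rose from 1.72, by nearly the pooled SD of 0.714 between samples. Among named members, the sign turned in Trbv12-1 alone, at -0.08 without vector sample 1 and -0.12 without circEZH2_005 sample 1, with 0.44 as its highest value when 1 sample was left out. Samples that share a replicate number did not deviate together (correlations of -0.14, -0.02 and 0.04), and 1 of 3 correlated best with its own number, so the block rests on numbers alone. The cause of these changes was not tested. The ratios of summed levels without each sample, for all members, CD3 and the gamma clusters, were added after the values were seen and were above 1 in every case.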
